A study of Mus musculus and Rattus norvegicus with 32 samples.

Results

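Genes for the pore and accessory subunits of potassium, sodium, calcium and HCN channels were taken from 4 RNA-seq tables of hearts and cardiomyocytes in which METTL5, the enzyme that places m6A on 18S rRNA, was removed or raised. Members were all rows whose gene symbol begins as Kcn followed by a letter, as Scn, a number and a or b, as Cacna, Cacnb or Cacng, or as Hcn and a number. The rule found 143 of 55487 rows in each mouse table and 136 of 32883 rows in the rat table. The symbols in both species numbered 135. Of the mouse members, 5 are non-coding transcripts that overlap or oppose channel genes, of which Kcnq1ot1 was tested. It is counted in the totals of the mouse tables, passed in none of them, and has no place in the counts by family.

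Each group held 4 libraries. The 1-month-old C57BL/6 mice were Mettl5-KO, which lack the gene in every tissue, or Ctrl. The 3-month-old C57BL/6 mice were METTL5-cKO, made from METTL5 fl/fl mice with Myh6-Cre, a driver of recombination in cardiomyocytes, so the other cells of these hearts keep METTL5, or their littermate controls. The third pair was METTL5-cKO and control hearts of the same labelled age, 4 weeks after transverse aortic constriction (TAC), an operation that raises the pressure load on the left ventricle. Whether controls carried Cre or floxed alleles is not given in the sources used here. The fourth pair was neonatal rat ventricular cardiomyocytes (NRVMs) of Sprague Dawley rats at postnatal day 2, all treated with 20 μM phenylephrine (PE), a hypertrophic α-adrenergic agonist, for 24 h. They carried an adenovirus with the human METTL5 coding sequence under a viral promoter (AdMETTL5) or with GFP (AdGFP).

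The cardiac action potential is shaped by these channels in turn. Sodium channels give the upstroke, L-type calcium channels hold the plateau and start contraction, and several potassium currents end it. Transient outward current (Kcnd2, Kcnd3 with Kcnip2) gives early repolarization, delayed rectifiers (Kcnh2, Kcnq1 with Kcne1) the late part, and inward rectifiers (Kcnj2, Kcnj12) hold the resting potential. HCN channels and T-type calcium channels serve pacemaking and are prominent in the immature ventricle. Lower transcripts of repolarizing potassium channels are a known feature of hypertrophied and failing ventricles.

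Total counts per library were 19899033 to 21804907 in the mouse tables. They were 17344430 to 18085339 in the AdGFP and 14324700 to 14642431 in the AdMETTL5 libraries, so depth moved with the group there. Defining cardiomyocyte markers were high in all libraries, with summed levels of 19700 CPM (counts relative to the TMM-scaled library size) or more in the hearts and 10500 or more in the NRVMs. Whole-gene counts of Mettl5 did not separate the mouse genotypes (log2 fold change 0.22 at 1 month, -0.18 in 3-month hearts and -0.04 in TAC hearts), and here the groups rest on their labels. Counts of whole genes do not resolve single exons. The paper describes the floxed exons as almost undetectable in the reads of METTL5-cKO hearts. The rat gene was 0.32 higher with AdMETTL5 (adjusted p = 0.00295 from edgeR). The human sequence of the virus was not counted on its own.

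Many members were silent or nearly so. The filter on low counts left 69 members at 1 month, 68 in 3-month hearts, 66 in TAC hearts and 85 in NRVMs. Of those that did not pass the filter, between 18 and 32 per table had no count in any library, and the highest single count among the rest was 23. Results below hold for the tested members only.

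Levels of different genes can be set against each other only per length, which was done in mouse with CPM divided by exon length in kilobases (RPKM). In unstressed 3-month control hearts Kcnk3, a tandem-pore background potassium channel (TASK-1), was highest, with 44.9 ± 5.04 RPKM (SD, n = 4). Kcnip2, the β-subunit of the transient outward channel, followed with 28.6 ± 4.19 RPKM. Kcnj11, the pore of the cardiac KATP channel, had 23.7 ± 2.98 and Kcng2, a silent Kv subunit, 21.5 ± 1.8 RPKM. The ranges of Kcnip2 (24.1 to 34.1) and Kcnj11 (20.9 to 27.3) overlapped, as did those of Kcnj11 and Kcng2, so that Kcnk3 was clear of its neighbour and these were not. Other genes at lower levels included Kcna5 (11.3), Kcnh2 (10.2), Cacna1c, the L-type calcium channel (9.19), Cacna2d1 (8.2), Kcnj8 (8.01) and Kcnj3 (7.84 ± 2.67), and among these 6 each range overlapped that of the next gene in this order. Between 35 and 43 members exceeded 0.5 RPKM in each of the 6 mouse groups.

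**Figure D1:**
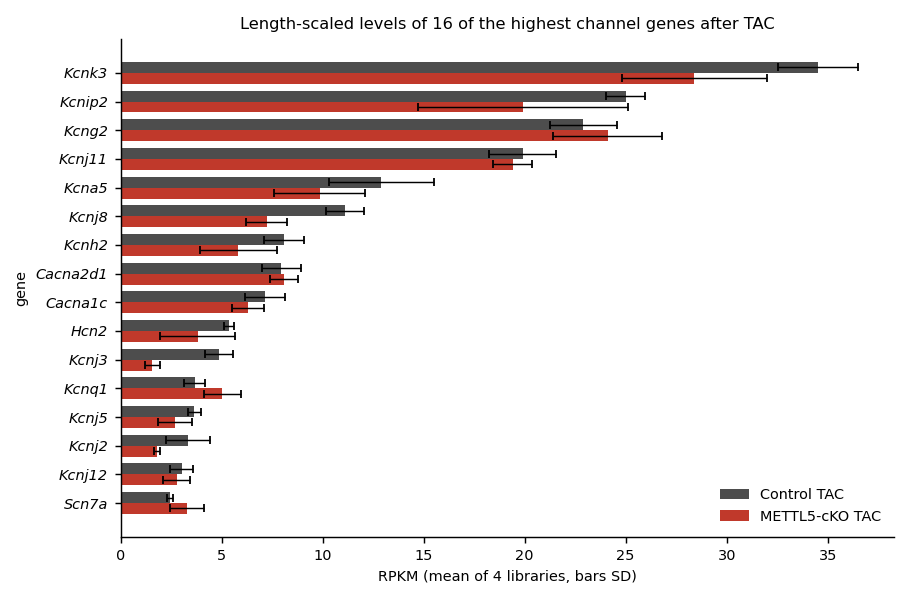
Mean length-scaled level (RPKM, horizontal axis from 0) of 16 of the highest channel genes in control hearts after TAC, in control (grey) and METTL5-cKO (red) hearts. Bars are means of 4 libraries and lines are SD. Kcnk3 leads in both groups, and Kcnj3, Kcnj8 and Kcnj2 have shorter bars in METTL5-cKO.

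Genotype was compared with control in each table by edgeR's quasi-likelihood test, and p-values were adjusted by the Benjamini-Hochberg method over all genes of the table. A gene with an adjusted p under 0.05 is said to pass, and one that also has an absolute log2 fold change over 1 is called dysregulated. In edgeR no channel gene passed at 1 month (0 of 69, where 0.00612% of all tested genes passed) or at 3 months (0 of 68, against 0.0732%). After TAC 12 of 66 passed, 3 higher and 9 lower in METTL5-cKO (18.2%, against 12.7% of all 16340 tested genes). In NRVMs 53 of 85 passed, 28 higher and 25 lower with AdMETTL5 (62.4%, against 52.8% of all 15041 tested genes). The lower calls after TAC made up 13.6% of the tested members and 6.1% of all tested genes, and the higher calls 4.55% and 6.57%. In NRVMs the higher calls made up 32.9% of the tested members and 27.1% of all tested genes, and the lower calls 29.4% and 25.7%. Dysregulated members were 5 after TAC (7.58%, against 2.9%) and 24 in NRVMs (28.2%, against 5.85%). Some of the 24 lost their call under a stricter count filter, as given below. The median log2 fold change of the tested members was 0.06, 0.03, -0.08 and -0.10 in the 4 comparisons, beside medians of all genes between -0.00673 and 0.000709. DESeq2 called 14 members after TAC (16.9% of all genes it tested) and 52 in NRVMs (46.0% of all genes), of which 10 and 48 were among those that passed in edgeR. Splits by direction depended on scaling. With libraries scaled by their totals alone, 8 members were higher and 8 lower after TAC (12.6% and 3.21% of all genes), and 33 were higher and 18 lower in NRVMs (39.0% and 15.6% of all genes, 54.6% together).

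**Figure D2:**
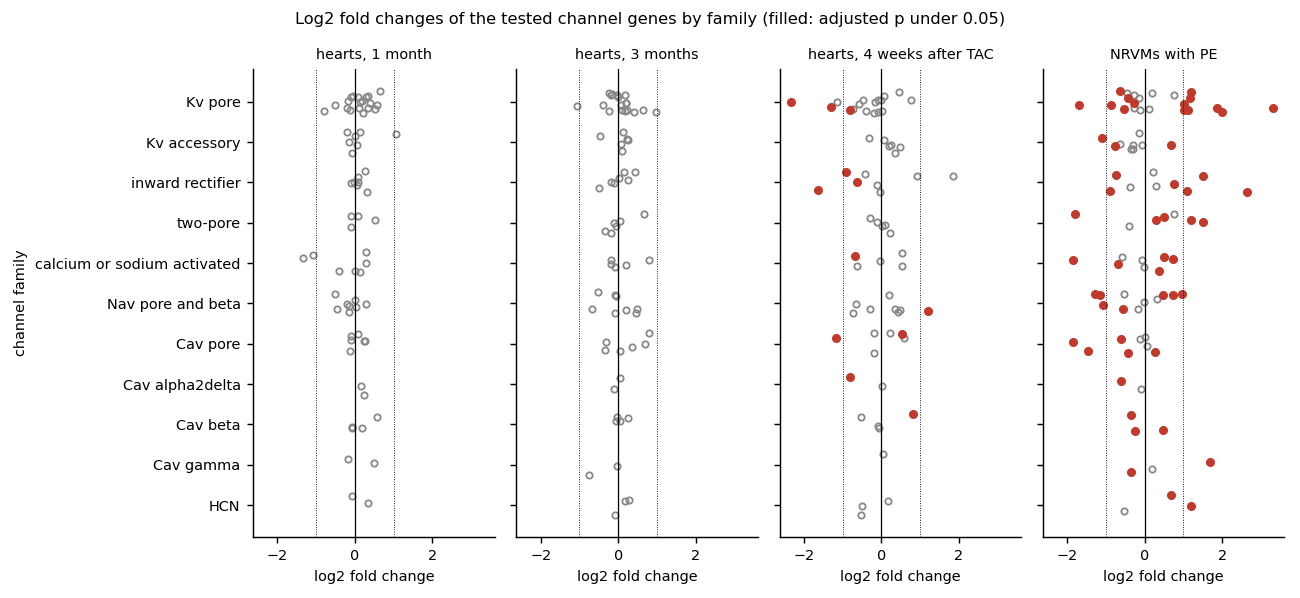
Log2 fold change (horizontal axis, positive is higher in METTL5-KO, METTL5-cKO or AdMETTL5) of each tested channel subunit gene, 1 point per gene, in rows by family and in 1 panel per comparison. Filled points passed the test, and dotted lines mark a log2 fold change of 1 in either direction. No point is filled at 1 or 3 months, 12 are filled after TAC and 53 in NRVMs.

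At 1 month the member with the smallest p was Kcne1, the β-subunit that slows the Kcnq1 delayed rectifier. It had 3.84, 5.47, 6.58 and 8.38 CPM in the control libraries and 12.6, 10.5, 13.2 and 13.9 in the METTL5-KO libraries. Every METTL5-KO library was above every control library. The log2 fold change was 1.05 (SE 0.214) and did not pass (adjusted p = 0.966 from edgeR). DESeq2 called it (adjusted p = 0.0239, where it called 0.06% of the genes it tested), so the call rests on the tool. The paper, which used DESeq2, lists Kcne1 as dysregulated at this age. Groups without overlap were found for 3 tested members, among them Kcne1 and Kcnn4, beside 3.01% of all tested genes. Kcnn4 was named after its values were seen. At an unadjusted p under 0.05 there were 5 members, beside 4.57% of all genes.

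Kcne1 did not pass in the older hearts either. In 3-month hearts it had 2.24, 2.56, 1.79 and 1.82 CPM in control and 2.49, 2.3, 2.29 and 2.9 CPM in METTL5-cKO (log2 fold change 0.25, adjusted p = 0.892). After TAC it had 2.03, 3.5, 4.06 and 4.03 CPM in control and 2.5, 4.74, 4.53 and 4.44 CPM in METTL5-cKO (0.25, adjusted p = 0.548). The groups overlapped in both tables. In NRVMs Kcne1 fell with AdMETTL5, from 4.45, 4.51, 3.39 and 4.07 CPM to 2.7, 2.08, 2.76 and 2.1 CPM, without overlap (log2 fold change -0.77, SE 0.15, adjusted p = 0.00102). The deletion at 1 month covers all tissues and the later ones cardiomyocytes only, and each table was scaled on its own, so age, allele and table cannot be told apart in these levels.

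At 3 months Kcnv2, a silent Kv subunit, came closest to the threshold. It had 13.8, 9.05, 15.9 and 11.2 CPM in control and 5.56, 5.86, 5.8 and 6.76 CPM in METTL5-cKO hearts. All METTL5-cKO libraries were below all control libraries. The log2 fold change of -1.06 (SE 0.172) had an adjusted p of 0.11 in edgeR and of 7.43e-05 in DESeq2, which called 0.599% of the genes it tested. Kcnv2 is also among the genes that the paper lists as dysregulated in these hearts. Groups without overlap were found for 3 tested members, beside 4.23% of all tested genes, among them Kcnv2 and Kcnd3, a pore of the transient outward current (-0.24, adjusted p = 0.669). At an unadjusted p under 0.05 there were 6 members, beside 7.05% of all genes.

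After TAC the smallest adjusted p among members was that of an inward rectifier. Kcnj3 (ENSMUSG00000026824, GRCm38 chr2:55435970-55598145, plus strand) encodes GIRK1, a pore of the acetylcholine-activated potassium channel. It had 29.8, 26.3, 20.9 and 24.4 CPM in control and 6.45, 6.61, 9.98 and 9.69 CPM in METTL5-cKO hearts. The gap between the groups was wider than the spread within either of them. The log2 fold change was -1.63 (SE 0.171, adjusted p = 0.00245), and the exact two-sided permutation test gave p = 0.0286, the smallest that 4 against 4 libraries allow. GIRK1 is best known from atrial and nodal cells. The atrial marker list was low, with sums of 2.58 to 3.9 CPM in control and 5.74 to 16.5 CPM in METTL5-cKO. Only 2 of its 6 genes were tested, with Dkk3 rising, and Myl7 and Bmp10 were at 0 in every library. Pacemaker and conduction markers summed to 15.9 to 25.7 CPM in control and 10.6 to 20.2 CPM in METTL5-cKO. Of the 4 tested, 2 had positive and 2 negative log2 fold changes (median 0.00424), and none passed. Isl1 was at 0, and Tbx3, the most abundant, had -0.94 (adjusted p = 0.0824). The part of these markers in the Kcnj3 values was not tested. Kcnj5 (GIRK4), its partner in the channel, had 15.2 to 18.7 CPM in control and 7.81 to 16.03 CPM in METTL5-cKO and did not pass (-0.44, adjusted p = 0.179).

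Kcnj8 and Kcnj2 fell as well. Kcnj8, the pore of vascular KATP channels, had 26.2, 26.5, 31.0 and 29.9 CPM in control and 15.4, 20.7, 17.2 and 20.4 CPM in METTL5-cKO (-0.62, SE 0.111, adjusted p = 0.013). Pericytes and smooth muscle carry Kcnj8, and the marker list of these cells summed to 555 to 597 CPM in control and 450 to 567 CPM in METTL5-cKO. Of its 6 genes 1 passed as higher and 0 as lower. The part of these markers in the Kcnj8 values was not tested. Kcnj2, the main pore of the resting inward rectifier, had 27.0, 13.7, 16.9 and 15.3 CPM in control and 8.77, 9.2, 10.1 and 10.5 CPM in METTL5-cKO (-0.91, SE 0.198, adjusted p = 0.0208). Control library 1 was well above the other control libraries, and the call was lost without METTL5-cKO library 1 (-0.87) or library 2 (-0.89), with an adjusted p of up to 0.0669. The cardiac KATP pore Kcnj11 had 64.2 to 77.9 CPM in control and 66.4 to 74.7 CPM in METTL5-cKO (-0.04, SE 0.0798, adjusted p = 0.786). Kcnj12, the other resting rectifier, also overlapped between the groups (-0.12, adjusted p = 0.727). Of 8 tested inward rectifiers, 3 were lower and 0 higher.

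Among Kv pores 3 of 17 tested fell and 0 rose, and Kcnd2 and Kcnd3, the pores of the fast transient outward current, were among them. Kcnd2 had 6.65, 2.97, 4.58 and 5.77 CPM in control and 1.97, 2.01, 2.06 and 2.1 CPM in METTL5-cKO (-1.29, SE 0.227, adjusted p = 0.0128). The METTL5-cKO libraries lay close together below the spread of the control libraries. Kcnd3 had 10.6 to 11.4 CPM in control and 5.22 to 7.36 CPM in METTL5-cKO (-0.80, SE 0.107, adjusted p = 0.00621). Their β-subunit Kcnip2 had 90.1, 87.1, 82.1 and 87.7 CPM in control and 57.3, 61.4, 61.7 and 96.1 CPM in METTL5-cKO, so that library 4 was above all control libraries, and it did not pass (-0.33, adjusted p = 0.176). Kcnv2 had 5.11, 10.0, 9.16 and 10.6 CPM in control and 0.745, 1.37, 1.9 and 2.9 CPM in METTL5-cKO (-2.34, SE 0.356, adjusted p = 0.00857), the largest fold change of any passing member. Kcna5, Kcnh2 and Kcnq1, pores of sustained and delayed rectifiers, did not pass, with log2 fold changes of -0.39, -0.48 and 0.46 and adjusted p between 0.0716 and 0.193.

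Calcium channel genes moved both ways. Cacna1s (chr1:136052750-136119822, plus strand) encodes the L-type pore of skeletal muscle. It had 6.94, 6.86, 6.19 and 6.5 CPM in control and 2.63, 2.87, 2.39 and 3.99 CPM in METTL5-cKO hearts, without overlap (-1.16, SE 0.156, adjusted p = 0.00621). The list of skeletal muscle markers was near the floor, with sums of 0.832 to 3.49 CPM in control and 0.82 to 4.19 CPM in METTL5-cKO. Myh4, Myh1 and Actn3 were at 0, and none of the 3 tested markers passed. The part of these markers in the Cacna1s values was not tested. The pore of the cardiac L-type channel, Cacna1c, overlapped between the groups and did not pass (151 ± 21.0 against 133 ± 16.9 CPM, -0.18, adjusted p = 0.342). Cacna1g, a T-type pore, rose from 9.7 to 11.5 CPM in control to 11.6 to 17.2 CPM in METTL5-cKO (0.53, SE 0.129, adjusted p = 0.0305), and this call was lost in 7 of 13 alternatives. A T-type transcript was thus higher and the skeletal L-type transcript lower in the same hearts. Cacnb1, a β-subunit that is prominent in skeletal muscle, rose from 5.4 to 6.55 CPM in control to 9.49 to 12.3 CPM (0.80, SE 0.109, adjusted p = 0.00638). Cacna2d2, an α2δ-subunit, fell (-0.82, adjusted p = 0.04), but this call was lost in 9 of 13 alternatives, DESeq2 (adjusted p = 0.115) and scaling by library totals among them. The abundant Cacna2d1 had 0.03 (adjusted p = 0.89). Cacnb1, Cacna2d2 and the calcium-activated channel subunit Kcnmb1 (-0.68, adjusted p = 0.0279) are given because they passed. The call of Kcnmb1 was lost in 8 of 13 alternatives, including DESeq2 (adjusted p = 0.0781).

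Scn4b, a β-subunit of sodium channels, had 5.68 to 9.77 CPM in control and 3.14 to 6.59 CPM in METTL5-cKO and did not pass (-0.67, SE 0.262, adjusted p = 0.119). No HCN gene passed, with Hcn2 at 16.1 to 18.0 CPM in control and at 10.2, 9.52, 7.76 and 21.0 CPM in METTL5-cKO (-0.50, adjusted p = 0.236).

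**Figure D3:**
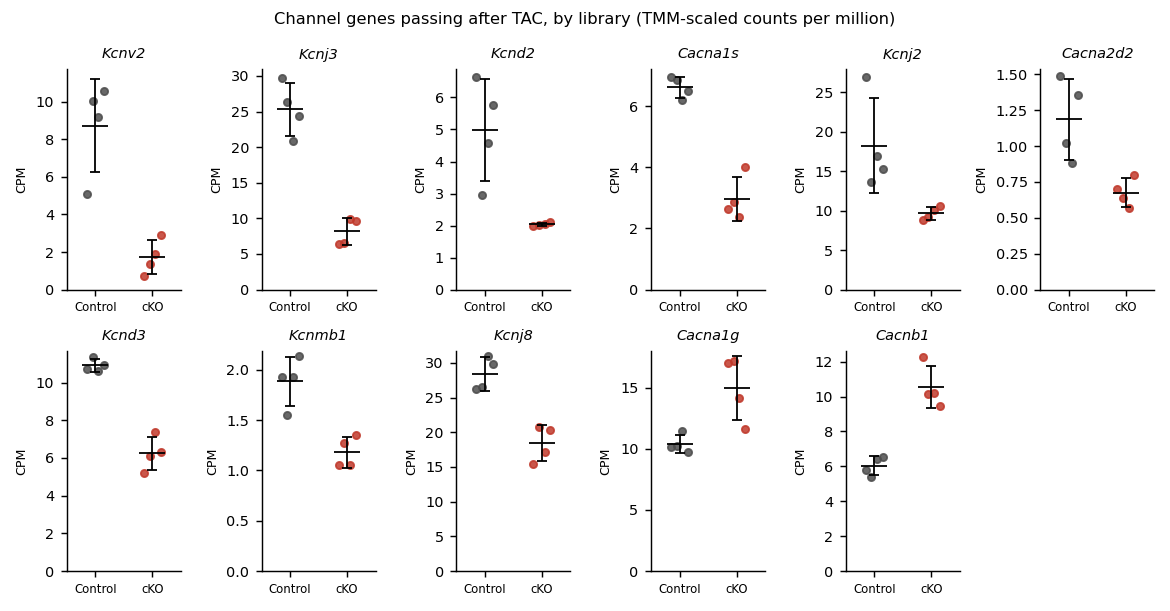
CPM (vertical axis from 0, scaled by TMM) of 11 of the 12 channel genes that passed after TAC in each of 4 control (grey) and 4 METTL5-cKO (red) libraries, ordered from the lowest log2 fold change to the highest. Horizontal marks are means and vertical lines SD. The 4 points of a group do not overlap those of the other group in any panel, and 9 panels show lower and 2 higher METTL5-cKO values.

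The members that were dysregulated and lower after TAC were Kcnj3, Cacna1s, Kcnd2 and Kcnv2. For the first 3 of these the stretch around the transcription start is shown, so that their unlike base composition can be seen. The sequences are from RefSeq on GRCm38.p6, plus strand, 250 bases before to 50 after the start. Capitals mark each CG pair.

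Kcnj3, chr2:55435720-55436019: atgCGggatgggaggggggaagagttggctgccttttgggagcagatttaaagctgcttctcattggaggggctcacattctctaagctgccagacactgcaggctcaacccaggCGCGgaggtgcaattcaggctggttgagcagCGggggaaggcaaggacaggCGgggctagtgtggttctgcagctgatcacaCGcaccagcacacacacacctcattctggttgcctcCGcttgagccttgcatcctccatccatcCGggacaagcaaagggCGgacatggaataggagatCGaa

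Cacna1s, chr1:136052561-136052860: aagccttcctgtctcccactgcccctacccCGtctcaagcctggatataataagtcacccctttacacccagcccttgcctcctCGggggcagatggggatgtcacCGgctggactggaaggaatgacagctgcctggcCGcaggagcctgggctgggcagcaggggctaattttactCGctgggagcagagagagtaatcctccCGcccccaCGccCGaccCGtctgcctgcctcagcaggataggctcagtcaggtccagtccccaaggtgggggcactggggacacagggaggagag

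Kcnd2, chr6:21215096-21215395: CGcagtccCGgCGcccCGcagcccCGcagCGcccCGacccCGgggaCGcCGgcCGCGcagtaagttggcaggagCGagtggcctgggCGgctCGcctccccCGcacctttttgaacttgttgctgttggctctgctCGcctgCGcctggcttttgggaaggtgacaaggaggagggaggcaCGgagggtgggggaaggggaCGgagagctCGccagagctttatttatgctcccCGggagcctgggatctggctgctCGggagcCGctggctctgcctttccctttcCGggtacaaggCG

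The Kcnj3 stretch holds 10 CG pairs, that of Cacna1s 9 and that of Kcnd2 26, beside a median of 7 in all 32851 promoter windows and of 9 in the 140 windows of the 104 matched channel genes. More CG pairs than in Kcnd2 occur in 15.5% of all windows. Motifs were searched on both strands. The letters AGATAA, bound by GATA factors, occur in 11.2% of all windows and in 5 of the 140 channel windows. The TATA box letters, TATAAA, occur in 13.6% of all windows and in 7 channel windows. The letters CTA and TAG with any 4 bases between them, a pattern wider than the MEF2 element it takes in, occur in 3.69% of all windows and in 2 channel windows. None of these occurs in the 3 stretches above. A missing match says only that these letters are not in the window.

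METTL5-cKO library 4 after TAC lay nearer to the control hearts than its group in several of these genes. Without it 24 of 68 tested members passed (8 higher and 16 lower), beside 23.4% of all genes (11.8% higher and 11.6% lower). All 12 genes that passed with every library were among them. The additional ones included Kcnip2, Kcnh2, Kcnk3, Hcn2, Hcn4 and Scn4b, all lower, and Kcnq1, higher. Kcnip2 then had -0.52 (adjusted p = 0.00106), Kcnh2 -0.65 (adjusted p = 0.0471), Hcn2 -0.89 (adjusted p = 0.000845) and Kcnq1 0.59 (adjusted p = 0.00614). The count of calls thus rose from 12 to 24 without this library. Without any other single library it was 8 to 11, and 4 of the 12 calls (Kcnj2, Kcnmb1, Cacna1g and Cacna2d2) were lost in at least 1 of those fits, while 8 were kept in all of them. Groups did not overlap in 16 of the 66 members with all libraries, beside 18.6% of all tested genes.

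Cell markers differed between the same hearts. The cardiomyocyte list summed to 38700 to 43100 CPM in control and 28700 to 37100 CPM in METTL5-cKO, and Tnni3 and Mb of its 6 genes passed as lower. The ventricular list had 2 of 4 lower and none higher, with sums of 10200 to 11900 CPM in control and 6480 to 9290 CPM in METTL5-cKO that did not overlap. Endothelial markers had 4 of 6 lower (sum 626 to 734 CPM against 436 to 567), fibroblast markers 4 of 6 higher (440 to 533 against 610 to 1300) macrophage markers 2 of 6 higher (117 to 145 against 149 to 197) and Schwann cell markers 1 of 5 tested lower (10.3 to 17.5 against 6.83 to 10.7). The part of these shifts in the channel values was not tested, and fewer cells of a type and less RNA per cell cannot be told apart in bulk tissue.

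Kcnj3 and Cacna1s did not pass in hearts without TAC. At 1 month Kcnj3 had 13.95, 24.4, 18.7 and 26.1 CPM in control and 17.2, 23.5, 17.7 and 19.4 CPM in METTL5-KO (-0.10, SE 0.195, adjusted p = 0.975). At 3 months it had 61.5, 32.6, 32.2 and 37.1 CPM in control and 38.7, 29.4, 24.9 and 22.7 CPM in METTL5-cKO (-0.50, SE 0.236, adjusted p = 0.73). The groups overlapped in both. Cacna1s had 7.92 to 12.5 CPM in control and 6.86 to 9.77 CPM in METTL5-cKO at 3 months (-0.35, SE 0.159, adjusted p = 0.715), and -0.13 at 1 month.

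The question of whether pressure load altered the effect of the deletion was asked of all 16 libraries of 3-month and TAC hearts with an interaction term. No library is labelled as sham-operated, and the 3-month and TAC hearts are in separate tables. Load, operation and table therefore cannot be told apart in this term. None of 73 tested members passed in edgeR (0.00586% of 17070 genes did), and DESeq2 called 2 (1.25% of the genes it tested). At an unadjusted p under 0.05 there were 17 members, 12 with a lower and 5 with a higher effect after TAC, beside 11.8% of all genes (5.17% lower and 6.61% higher). The smallest adjusted p among members was that of Kcnj8, with a difference of -0.75 (SE 0.173, adjusted p = 0.127) between effects of 0.14 at 3 months and -0.62 after TAC. Kcnd3 had -0.55 (SE 0.141), Kcnj3 -1.11 (SE 0.318), Cacna1s -0.80 (SE 0.229) and Kcnv2 -1.27 (SE 0.41), with adjusted p from 0.149 to 0.228. Without METTL5-cKO TAC library 4, 8 members passed, beside 3.91% of all genes, among them Kcnj8, Kcnd3, Cacna1s and Kcnv2 but not Kcnj3 (-1.21, adjusted p = 0.0614). Of the 12 genes that passed after TAC, 11 had the same sign at 3 months, where none passed, and 4 had it at 1 month. The same-sign share among all genes that passed after TAC was not computed. These counts are therefore not read as particular to channel genes.

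**Figure D4:**
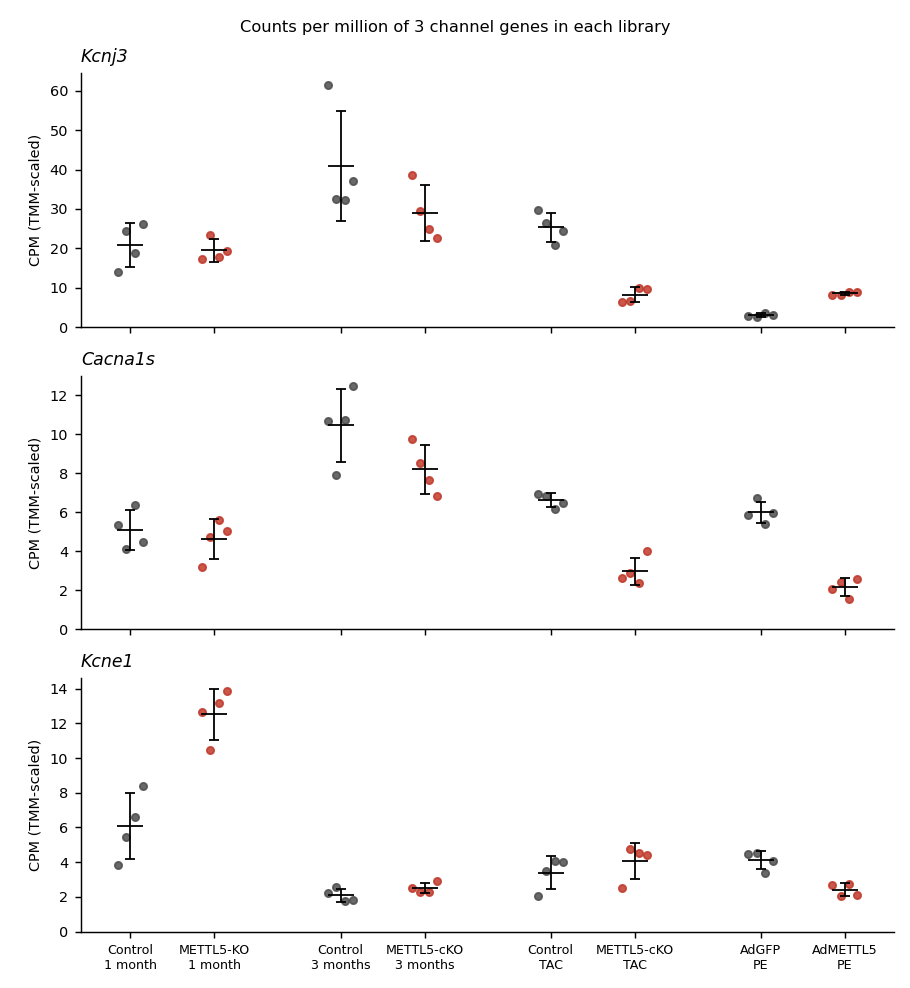
CPM (vertical axes from 0, scaled by TMM within each table) of Kcnj3, Cacna1s and Kcne1 in each library of the 8 groups. Grey points are control or AdGFP and red points METTL5-KO, METTL5-cKO or AdMETTL5, with means and SD. Kcnj3 is lower in METTL5-cKO after TAC and higher with AdMETTL5, Cacna1s is lower in both, and Kcne1 separates the groups at 1 month and in NRVMs.

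In NRVMs with PE, members of every family passed, where 52.8% of all tested genes did. T-type calcium pores and delayed rectifiers were lower, while HCN pores and several potassium pores were higher. Cacna1g had 421, 454, 448 and 475 CPM with AdGFP and 114, 121, 118 and 148 CPM with AdMETTL5 (-1.85, SE 0.0777, adjusted p = 1.23e-08). The groups lay far apart, with narrow spreads.

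Kcnq1, the slow delayed rectifier, had 63.0, 63.2, 63.2 and 72.4 CPM with AdGFP and 22.6, 22.2, 15.9 and 20.7 CPM with AdMETTL5 (-1.69, SE 0.0946, adjusted p = 6.36e-08). Its β-subunit Kcne1 fell with it, as given above. Kcnh2, the rapid delayed rectifier, was lower by less (-0.27, SE 0.0776, adjusted p = 0.0115). Of the delayed rectifier pores, that of the slow current thus had the larger log2 fold change. Scn10a, a neuronal sodium channel pore, fell from 5.42 to 6.22 CPM to 1.95 to 2.67 CPM (-1.28). Cacna1s fell from 5.87, 6.74, 5.43 and 5.99 CPM to 2.09, 2.42, 1.58 and 2.61 CPM (-1.46, SE 0.148, adjusted p = 6.77e-06). Skeletal muscle markers were lower in the same cultures, with 3 of 5 tested passing (Mylpf, Tnnt3 and Tnni2), none higher, Actn3 at 0 and sums of 11.2 to 22.6 CPM with AdGFP and 7.63 to 9.58 CPM with AdMETTL5, and their part in the Cacna1s values was not tested. Cacna1h, the other cardiac T-type pore, had -0.44 (adjusted p = 3.36e-05), and Cacna1c had 102 ± 14.2 CPM with AdGFP and 102 ± 7.56 CPM with AdMETTL5 (0.01, SE 0.0906, adjusted p = 0.96).

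Pacemaker channel genes rose. Hcn2 had 13.9, 12.1, 12.1 and 14.9 CPM with AdGFP and 32.5, 29.5, 31.4 and 27.2 CPM with AdMETTL5 (1.18, SE 0.0838, adjusted p = 3.8e-07). Hcn4, the main pacemaker channel, had 71.1 to 77.7 CPM with AdGFP and 111 to 128 CPM with AdMETTL5 (0.68, adjusted p = 7.7e-07). The HCN family had 2 higher and 0 lower of 3 tested.

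Inward rectifiers divided by gene. Kcnj3 rose from 2.73, 2.47, 3.68 and 3.14 CPM to 8.23, 8.05, 8.86 and 8.97 CPM (1.502, SE 0.122, adjusted p = 1.11e-06), and no AdGFP library came near an AdMETTL5 library. Its partner Kcnj5 fell from 49.2, 50.3, 53.9 and 53.4 CPM to 26.8, 27.0, 25.2 and 31.4 CPM (-0.91, adjusted p = 6.13e-07). The genes for both pores of the same channel thus changed in opposite directions. Kcnj12 rose (1.08, adjusted p = 5.31e-06), Kcnj11 fell (-0.75, adjusted p = 3.15e-05), and Kcnj2 had 0.28 (SE 0.147, adjusted p = 0.128). In all 4 inward rectifiers were higher and 2 lower of 9 tested.

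Kv pores gave 8 higher and 6 lower of 22 tested, and all 8 of the higher ones were dysregulated. Kcna4, a pore of the slow transient outward current, had 5.93 to 6.77 CPM with AdGFP and 11.7 to 13.3 CPM with AdMETTL5 (1.01, adjusted p = 1.17e-06). Kcnq5, an M-type pore, had 11.2 to 12.6 CPM and 22.1 to 28.8 CPM (1.11, adjusted p = 6.28e-07). Kcnd3 overlapped between the groups (-0.12, adjusted p = 0.404), and Kcnd2 was not analysed in rat. Several of the higher genes had low levels. The calls of Kcng1, Kcna7, Kcnq3, Kcna3, Kcnc4 and the inward rectifier Kcnj4 were lost when 10 counts were required in every library. Kcng1 (3.32) and Kcnj4 (2.63), named after their values were seen for the largest fold changes, had means of 0.147 and 0.266 CPM with AdGFP and of 1.54 and 1.69 CPM with AdMETTL5. Tandem-pore genes gave 4 higher and 1 lower of 7 tested, with the abundant Kcnk3 rising from 41.0 to 43.0 CPM to 53.6 to 63.7 CPM (0.49, adjusted p = 3.09e-05).

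Scn4b rose from 3.91 to 5.47 CPM with AdGFP to 7.31 to 11.1 CPM with AdMETTL5 (0.97, SE 0.146, adjusted p = 1.58e-04). Groups did not overlap in 44 of 85 members, beside 48.4% of all tested genes. So the count of members that differed was near that of genes at large, while their share of dysregulated genes was 28.2% against 5.85%. Of the 24 dysregulated members, Kcna7, Kcnj4, Kcng1, Kcnq3, Kcna3, Kcnc4, Kcnip2 and Kcnk15 lost their call when 10 counts were required in every library. The dysregulated shares of members and of all genes were not computed under that filter, so the excess is not read as particular to channel genes. Cardiomyocyte markers moved in the same cultures: all 5 tested were lower, from a summed 24400 to 32300 CPM to 10500 to 11900 CPM. Ventricular markers had 3 of 4 lower, atrial markers 5 of 5 tested lower and fibroblast markers 5 of 6 lower, while Kdr alone of 5 endothelial markers was higher. Smooth muscle and pericyte markers had 3 higher and 1 lower of 6, and neuron markers 2 higher and 1 lower of 4 tested. Pacemaker and conduction markers had 1 higher and 0 lower of 4 tested. Macrophage and Schwann cell markers each had 2 of 4 tested lower and 0 higher. The part of these shifts in the channel values was not tested.

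**Figure D5:**
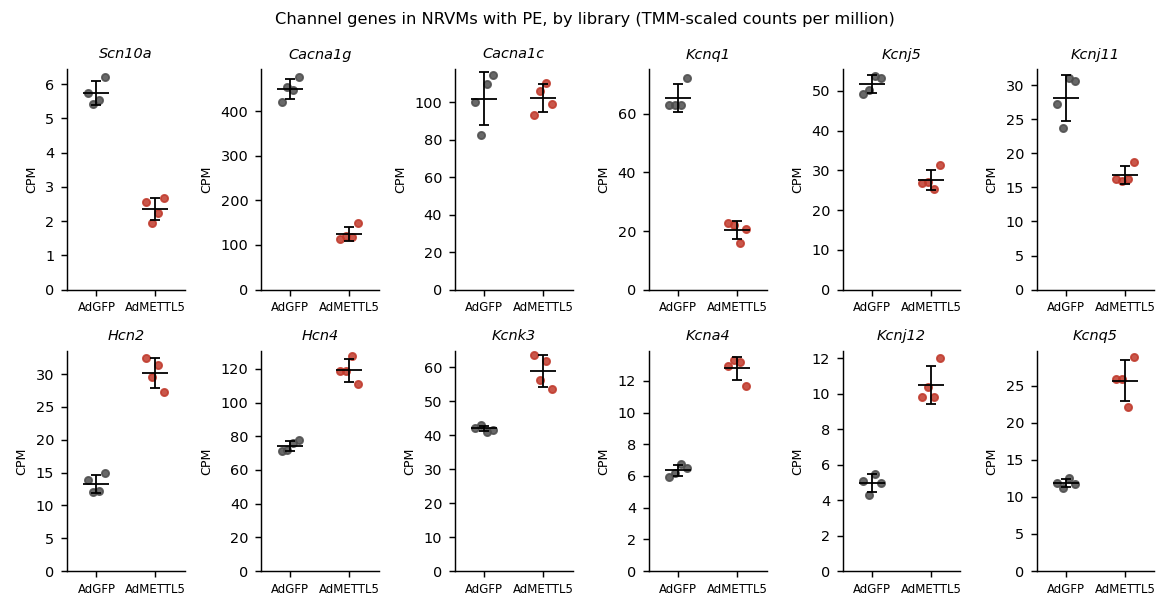
CPM (vertical axes from 0, scaled by TMM) of 12 channel genes in 4 AdGFP (grey) and 4 AdMETTL5 (red) libraries of NRVMs with PE, with means and SD. Scn10a, Cacna1g, Kcnq1, Kcnj5 and Kcnj11 are lower with AdMETTL5, Cacna1c overlaps, and Hcn2, Hcn4, Kcnk3, Kcna4, Kcnj12 and Kcnq5 are higher.

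Loss of METTL5 after TAC and its excess in NRVMs could be set side by side for 57 members tested in both tables, which share no libraries. Of 12 genes that passed after TAC, 11 were tested in NRVMs and 7 passed there, and of 53 that passed in NRVMs, 38 were tested after TAC. These 7 are Kcnj3 (-1.63 after TAC, 1.502 in NRVMs), Cacna1g (0.53 and -1.85), Cacnb1 (0.80 and -0.34) and Kcnmb1 (-0.68 and 0.37), with opposite signs, and Cacna1s (-1.16 and -1.46), Kcnv2 (-2.34 and -0.88) and Cacna2d2 (-0.82 and -0.62), with the same sign. So 4 of the 7 had opposite and 3 the same signs, beside 54.4% and 45.6% of the 993 genes that passed in both tables. Of the 7, Kcnj3, Cacna1s and Kcnv2 kept their calls in all alternatives in both tables. The calls of Cacna1g and Cacna2d2 were lost in some alternatives after TAC, that of Cacnb1 in 8 of 13 in NRVMs, and that of Kcnmb1 in 8 of 13 in each table (DESeq2 adjusted p = 0.12 in NRVMs). Species, age and culture differ between the tables along with METTL5.

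Of other genes of excitability and channel regulation, 57 were listed. None passed at 1 or 3 months (0 of 51 each). After TAC 4 of 50 tested were higher and 1 lower, beside 12.7% of all tested genes that passed. They were Trpm4, a calcium-activated cation channel (-0.69, adjusted p = 0.00782), Pkp2, a desmosome protein that anchors sodium channels (0.50, adjusted p = 0.0182), Fgf14, a sodium channel modulator (1.24, adjusted p = 0.0192), Atp1b1, a sodium pump subunit (0.52, adjusted p = 0.0359), and Slc8a1, the sodium-calcium exchanger (0.64, adjusted p = 0.0482). In NRVMs 15 of 52 tested were higher and 23 lower, beside 52.8% of all tested genes that passed. Among those with the smallest adjusted p were Pln, the inhibitor of the sarcoplasmic calcium pump (-0.96), Popdc2 (-0.94), Irx4, a ventricular transcription factor (-1.83), and Casq2, the calcium store protein (-0.88).

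Exons of 45 of the 143 mouse members overlap those of another gene, in 42 on the other strand and in 3 on the same strand only, and whether the counting used strand is not given in the sources used here. Overlaps on the other strand include Kcnj3 (with Gm26794), Cacna1s (with Gm37759), Kcnd3 (with Kcnd3os), Cacnb1, Cacna2d2 and Kcnq1 (with Kcnq1ot1). Reads of the overlapping genes cannot be told apart in these.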

How the data were processed

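RNA was sequenced in 32 libraries by BGIseq. The authors aligned reads with HISAT2 (2.0.4) to GRCm38 or Rnor_6.0 and the deposited tables hold estimated counts per gene from StringTie (2.1.4), as whole numbers without scaling, so rounding changed nothing. The design had taken them for plain counts. Strandedness and annotation release are not given in the sources used here.

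The quasi-likelihood test of edgeR 4.0.16 (R 4.3.3) was run on each table, after filterByExpr (at least 10 counts, total at least 15) and scaling by TMM, with Benjamini-Hochberg adjustment over all tested genes. For single members the mean log2 CPM (prior count 2) was tested by exact permutation, two-sided, over 70 labelings. The interaction was fitted on 16 libraries. The pipeline was tested on simulated data. RPKM used exon lengths of GENCODE vM21. Alternatives were DESeq2 1.42.0, other scalings and filters, and leaving out each library.

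Columns at 1 month matched single samples, and the others were assigned to a group only. Libraries of a group are numbered in the order of the column names. Nothing states that libraries of a group were separate animals or cultures, so p-values judge group differences only against the spread between these libraries. Genes named were Kcnj3, Kcne1 and Cacna1s, up to 8 dysregulated members per comparison by adjusted p, and the main subunits of cardiac currents. Some genes that this rule selects are not reported here. The members and lists were chosen with earlier results of these data known.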

Additional observations from a re-analysis of the deposited data

Results flagged for a closer look

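Single libraries that stood apart from the other 3 of their group were found in 7 of 102 gene and group pairs, where chance gives about 1 in 20. At 1 month Kcnj2 had 24.2 CPM in METTL5-KO library 3 (others 27.3 to 27.7). At 3 months Kcnj3 had 61.5 CPM in control library 1 (others 32.2 to 37.1). After TAC Kcne1 had 2.5 CPM in METTL5-cKO library 1 (others 4.44 to 4.74), Kcnq1 15.1 CPM in METTL5-cKO library 4 (others 22.2 to 22.6) and Scn4b 9.77 CPM in control library 1 (others 5.68 to 5.88). In NRVMs Kcnq1 had 72.4 CPM in AdGFP library 4 (others 63.0 to 63.2) and Kcnj11 18.8 CPM in AdMETTL5 library 4 (others 15.9 to 16.2).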

How the results depend on the processing

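Over fits that each lacked 1 library, the count of passing members ranged from 0 to 0 at 1 and 3 months, from 8 to 24 after TAC, from 45 to 52 in NRVMs and from 0 to 8 for the interaction, with the highest counts after TAC and for the interaction both without METTL5-cKO TAC library 4. At an unadjusted p under 0.05 the counts were 5 at 1 month, 6 at 3 months, 28 after TAC (beside 31.0% of all tested genes) and 17 for the interaction. With a minimum log2 fold change of 1 they were 5 after TAC and 24 in NRVMs. DESeq2 called 1 member at 1 month, 1 at 3 months and 2 for the interaction. After TAC its calls lacked Cacna2d2 and Kcnmb1 and added Kcnj14, Kcnk3, Kcnn2 and Kcnq1. At 1 month the sign of Kcnj3 turned without control library 4 (0.034, over a range from -0.246 to 0.034), and that of Cacna1s without METTL5-KO library 1 (0.012, range -0.235 to 0.012), and neither passed. The cause was not tested in these cases. Scaling by library totals moved the median of all genes by 0.147 after TAC and by 0.135 in NRVMs. After TAC 8 of the 12 passing members, among them Kcnj3, Cacna1s, Kcnv2, Kcnd2, Kcnd3 and Kcnj8, passed in all 13 alternatives. In NRVMs 33 of the 53 did so, and the calls of Kcnip2, Kcnh2 and Cacnb2 were lost in some. With the replicate number of the labels as a block at 1 month, 0 members passed. Same-numbered libraries there had correlations of 0.239, 0.12, -0.107 and 0.0782 and share only a number. In the other tables the columns carry no replicate numbers of the labels.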

Other observations

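Kcnd2 at 3 months had 15.6 CPM in control library 1 and 14.02 CPM in METTL5-cKO library 1, against 3.19 to 6.33 CPM in the other 6 libraries. It did not pass there (log2 fold change -0.22, SE 0.495, adjusted p = 0.999 from edgeR). Kcnj14, an inward rectifier of low level, had 0.843, 0.535, 0.312 and 0.534 CPM in control and 3.46, 2.05, 2.14 and 0.349 CPM in METTL5-cKO hearts after TAC, with a log2 fold change of 1.85 (adjusted p = 0.0585), and of 2.19 without METTL5-cKO library 4 (adjusted p = 0.00183). Both genes were chosen after their values were seen.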
